A study of Mus musculus with 12 samples.

Results

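The genes described here are those of cholesterol synthesis and of its control by the transcription factor SREBP2, followed in mouse quadriceps muscle across 4 treatment groups. The list holds 28 genes, taken as the pathway's genes by array annotation symbol, with earlier results of these data known, and 26 of them were measured among the 12771 genes tested. Acat2 and Soat1 were not analysed here. The study treated C57Bl/6J mice for 6 days with AICAR at 250 mg/kg/day, with GW1516 at 5 mg/kg/day, with both drugs at those doses, or with vehicle. AICAR is an adenosine analogue whose phosphorylated form activates the AMP-activated protein kinase, and GW1516 is an agonist of the nuclear receptor PPARδ. Each array carried RNA pooled from 3 animals, and each group had 3 arrays, 12 in all. Nothing in the labels says whether pools of a group shared animals or extractions, so p-values measure only the spread between these pools. No transgene or mutant allele is named in the labels, and the sources used here give neither age nor sex.

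Cells make cholesterol from acetyl-CoA through mevalonate, prenyl diphosphates, squalene and lanosterol. When sterols in the endoplasmic reticulum are low, the escort protein SCAP carries SREBP2 to the Golgi, where it is cut so that its amino-terminal part can enter the nucleus and switch on the genes of the pathway. When sterols are high, the INSIG proteins hold SCAP back, and oxysterols activate the LXR receptors, whose targets include the efflux transporter genes Abca1 and Abcg1. AMP-activated protein kinase is known to restrain sterol and fatty acid synthesis by phosphorylating enzymes of these pathways.

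Many sterol pathway promoters bind SREBP2 together with NF-Y, a factor that recognises the CCAAT box, so the members' promoters were searched for both sites. RefSeq promoters of GRCm38.p6, from 250 bases before to 50 after each start site, were matched by symbol for 23 of the 28 members, with 29 promoters in all because 4 genes had several. The CCAAT box, searched as CCAAT on both strands, was present for 20 of the 23 members (87.0%), against 41.1% of the 27025 genes with a promoter. The 3 members without it were Acat2, Scap and Abca1. A sterol regulatory element, searched as TCACNCCAC on both strands, was present for 1 of the 23 members (4.35%), Hmgcs1, against 1.44% of all genes. In the members' promoters no match of one motif overlapped a match of the other. A match or its absence describes these letters in this window only.

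The 250 bases before the start site are printed for 4 members: Hmgcs1 holds both motifs, Mvk holds 5 CCAAT boxes, Insig2 was the brightest member, and Abca1 ranked first among the members by limma's F test. Capitals mark the motifs, with CCAAT on the opposite strand written as ATTGG. Hmgcs1 (chr13:119690101-119690350, plus strand) has its sterol element 137 bases before the start site and 3 CCAAT boxes in the printed stretch. Mvk lies at chr5:114444019-114444268, plus strand. Insig2 has 3 promoters in the table, and the one with CCAAT boxes is shown (chr1:121332590-121332839, minus strand). Abca1 lies at chr4:53159896-53160145, minus strand, and holds neither motif.
Hmgcs1: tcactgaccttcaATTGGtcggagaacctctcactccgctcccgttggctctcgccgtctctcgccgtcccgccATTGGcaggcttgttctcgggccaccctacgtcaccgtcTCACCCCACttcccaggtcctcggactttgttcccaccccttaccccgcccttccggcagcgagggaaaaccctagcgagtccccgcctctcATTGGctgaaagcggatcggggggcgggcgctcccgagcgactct
Mvk: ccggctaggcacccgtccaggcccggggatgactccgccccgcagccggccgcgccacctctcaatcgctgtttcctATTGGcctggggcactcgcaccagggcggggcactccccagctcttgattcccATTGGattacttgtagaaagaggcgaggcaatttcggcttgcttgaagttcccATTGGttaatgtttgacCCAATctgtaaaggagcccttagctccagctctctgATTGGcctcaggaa
Insig2: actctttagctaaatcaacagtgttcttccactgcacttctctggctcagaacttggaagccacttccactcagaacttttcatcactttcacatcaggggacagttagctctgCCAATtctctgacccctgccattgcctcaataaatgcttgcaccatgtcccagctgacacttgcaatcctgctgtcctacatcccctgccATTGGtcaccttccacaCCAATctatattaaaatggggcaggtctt
Abca1: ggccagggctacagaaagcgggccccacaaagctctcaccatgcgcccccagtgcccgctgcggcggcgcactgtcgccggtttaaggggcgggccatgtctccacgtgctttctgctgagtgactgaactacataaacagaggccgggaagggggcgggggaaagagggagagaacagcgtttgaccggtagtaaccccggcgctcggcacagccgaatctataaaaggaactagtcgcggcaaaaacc

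No member passed the test in any comparison. Values are MAS5 signals, the deposited array intensities, and differences are on the log2 scale, first group minus second, fitted with limma over all 12 arrays, with p-values adjusted over the 12771 genes by the Benjamini-Hochberg method. An adjusted p under 0.05 counted as a call. For AICAR against vehicle 0 of 26 members were called, beside 0.00783% of all genes. For GW1516 against vehicle 0 members were called, beside 0.094% of all genes, and for the combination against vehicle 0 members, beside 0.258%. The other contrasts also gave 0 members. All genes were called at 0.0313% for the combination against AICAR, 0% for the combination against GW1516, 0% for AICAR against GW1516 and 0% for the interaction, the AICAR effect in the presence of GW1516 minus that without it. They were called at 0.0313% for the average AICAR effect, 0.149% for the average GW1516 effect and 0.11% for the F test over the 4 groups. With so few genes called anywhere, a count of 0 among 26 is near what the background gives.

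At an unadjusted p below 0.05 between 0 and 4 members were counted in each test. There were 2 members for AICAR against vehicle (7.69%, beside 6.93% of all genes), 4 for GW1516 (15.4%, beside 9.64%) and 3 for the combination (11.5%, beside 10.9%). Directly compared, the combination gave 0 members against AICAR (beside 7.32%) and 3 against GW1516 (beside 10.4%), and AICAR gave 2 against GW1516 (beside 9.15%). The interaction gave 1 (beside 6.64%), the average AICAR effect 2 (beside 10.4%), the average GW1516 effect 2 (beside 9.51%) and the F test 2, Abca1 and Ggps1 (beside 10.4%). Insig2 and Abca1 were in this count for each of the 3 comparisons with vehicle, which share the same 3 vehicle arrays. With GW1516 replicate 2 left out, the GW1516 count was again 4, made up of Ggps1, Insig1, Insig2 and Abca1, beside 6.88% of all genes, and the interaction count was 2, Abca1 and Npc1, beside 6.34%.

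The list as a whole did not stand to one side of vehicle. For AICAR 13 of 26 members lay above 0, with a median difference of -0.01, beside 52% and 0.01 over all genes. For GW1516 10 of 26 lay above 0, with a median of -0.075, beside 47.1% and -0.01 over all genes. That side rested on 1 array: without GW1516 replicate 2, 15 of 26 lay above 0 with a median of 0.05, beside 50.9% and 0.01 over all genes. For the combination 12 of 26 lay above 0, with a median of -0.01, beside 49.1% and -0.01. The median size of a difference regardless of sign was 0.13 for AICAR, 0.27 for GW1516 and 0.125 for the combination, beside 0.14, 0.165 and 0.17 over all genes. Leaving out GW1516 replicate 2 gave 0.17 for GW1516, beside 0.15 over all genes. Array by array, the members' median relative to vehicle was -0.05, -0.05 and 0.08 in AICAR arrays, -0.03, -0.15 and 0.05 in GW1516 arrays, -0.06, 0.02 and 0.00 in combination arrays, and 0.04, 0.00 and -0.04 in vehicle arrays. The 4 groups overlapped, and the lowest array was GW1516 replicate 2.

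**Figure D1:**
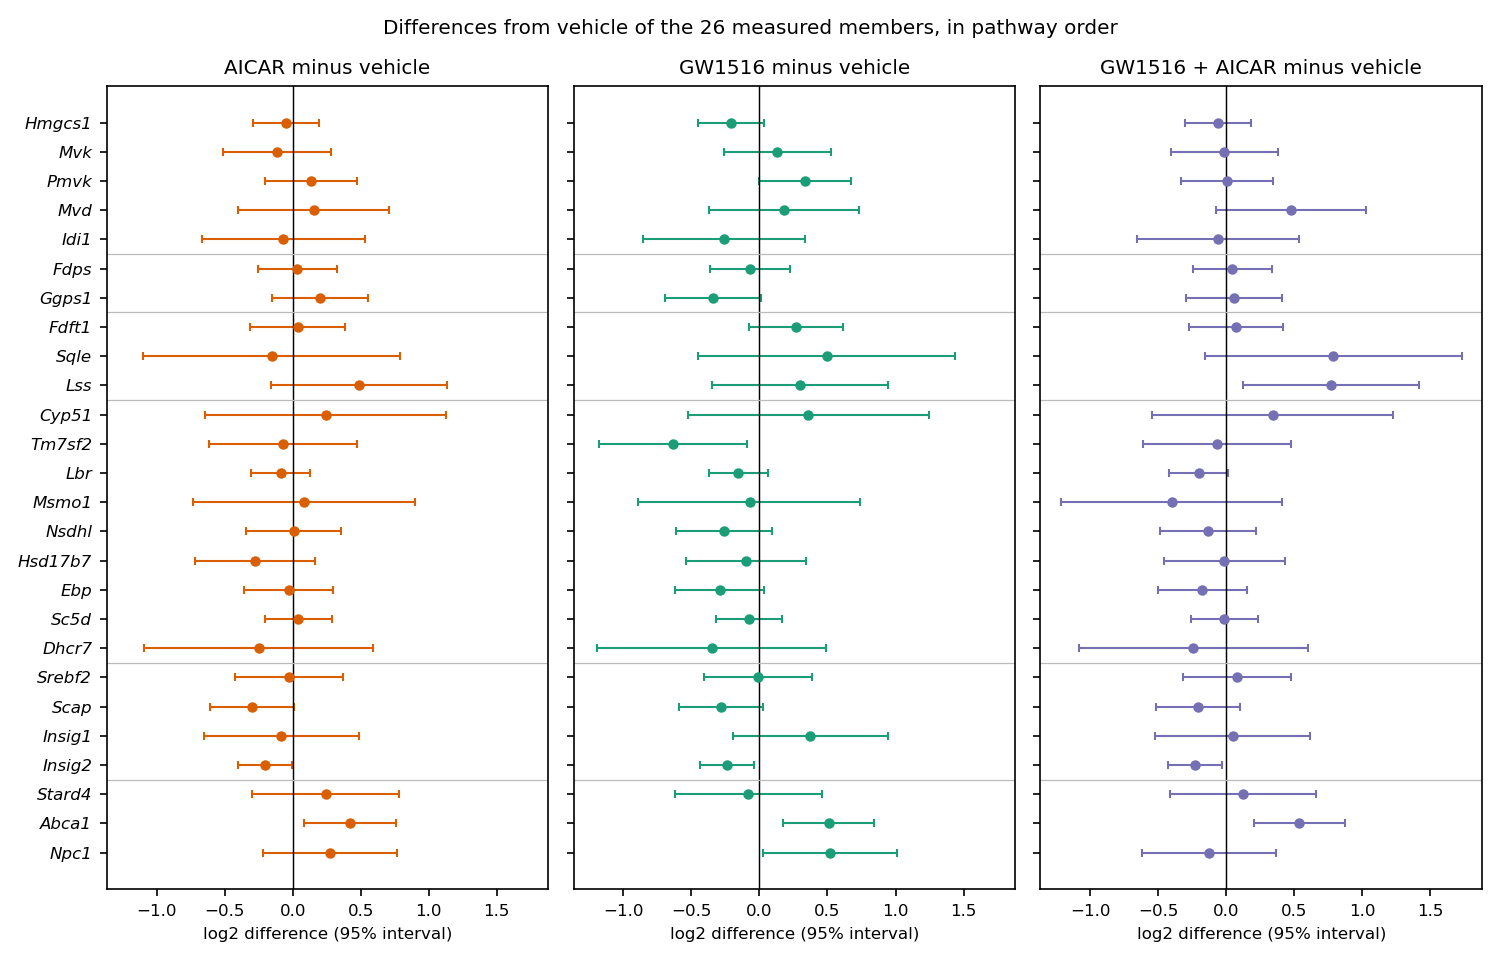
Log2 differences from vehicle for the 26 measured members, ordered by role in the pathway, with AICAR, GW1516 and the combination as separate points and bars giving the 95% interval of the fit. Most intervals cross 0, those of Abca1 lie above 0 in all 3 comparisons and those of Insig2 below 0, and none passed the adjusted threshold.

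Some facts of the arrays bear on these values. The label of muscle held: all 7 muscle fibre markers were measured and bright. GW1516 replicate 2 stood apart, with a score of 45.9 on the first principal component, where the other 11 arrays lay between -18.7 and 6.77. It held the lowest of the 12 values for 8 of 26 members (30.8%, beside 19.8% of all genes), which were Hmgcs1, Idi1, Fdps, Tm7sf2, Nsdhl, Ebp, Srebf2 and Stard4. It held the highest value for 3 members (11.5%, beside 14.5%), Pmvk, Fdft1 and Npc1. Fibroblast markers, 6 of 6 measured and none at 0, had a median of -1.43 on that array against the vehicle mean, and macrophage markers, 8 of 8 measured and none at 0, one of -0.64. The summed fibroblast signal was 13493 to 28176 in GW1516 arrays, against 24391 to 33740 in vehicle arrays, and the summed macrophage signal 1402 to 2440, against 1934 to 2606. The part of these cells in the results was not tested, and in whole muscle fewer cells of a type and less RNA per cell cannot be told apart. For the members given by name, the GW1516 difference without this array is printed wherever it moved by over 1.5 times or changed sign.

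The first steps, to isopentenyl diphosphate, gave 5 measured members and 0 called. Hmgcs1, whose enzyme condenses acetoacetyl-CoA and acetyl-CoA to HMG-CoA, had signals of 1281, 1271 and 1305 in AICAR arrays, 1375, 932 and 1195 in GW1516 arrays, 1209, 1285 and 1345 in combination arrays, and 1362, 1349 and 1285 in vehicle arrays. All groups overlapped with vehicle, and the low value was GW1516 replicate 2. The Hmgcs1 differences from vehicle were -0.05 ± 0.11 for AICAR, -0.21 ± 0.11 for GW1516 and -0.06 ± 0.11 for the combination (SE, 3 arrays against 3, limma adjusted p = 0.952, 0.573 and 0.884). The 95% interval for AICAR ran from 0.816-fold to 1.14-fold and that for the combination from 0.811-fold to 1.14-fold. Without GW1516 replicate 2 the GW1516 difference was -0.055. Its 3 other probe sets past the filter all lay below vehicle in the 3 comparisons, between -0.50 and -0.02, with none called.

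Pmvk, the kinase that adds the second phosphate to mevalonate, had 135, 165 and 170 in AICAR arrays, 171, 189 and 177 in GW1516 arrays, 147, 129 and 152 in combination arrays, and 164, 122 and 142 in vehicle arrays. All 3 GW1516 arrays lay above the vehicle arrays, and the other groups overlapped with vehicle. The difference for GW1516 was 0.33 ± 0.16 (SE, adjusted p = 0.518) and that for the combination 0.01 ± 0.16 (SE, adjusted p = 0.992). The remaining members of these steps overlapped with vehicle in every comparison. Mvk, the mevalonate kinase, lay between -0.12 and 0.13 over the 3 comparisons. Mvd, the decarboxylase, lay at 0.15 for AICAR, 0.18 for GW1516 and 0.48 for the combination. Idi1, the isomerase, lay at -0.07, -0.26 and -0.06 in that order, and the GW1516 value was 0.04 without GW1516 replicate 2. Mvk stood at 0.21 for GW1516 without that array. A second, dimmer Mvk probe set ran the other way for GW1516, with 176, 128 and 123 against 179, 152 and 166 in vehicle arrays. A second, dimmer Mvd probe set ran the other way for the combination, with 56.2, 44.8 and 41.5 against 47.9, 51.3 and 65.5 in vehicle arrays.

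Both prenyl diphosphate synthases were measured. Fdps, which makes farnesyl diphosphate, stayed within 0.07 of vehicle in all 3 comparisons, at 0.03, -0.07 and 0.04, with 0.05 for GW1516 once replicate 2 was left out. Ggps1, which makes geranylgeranyl diphosphate for protein prenylation, had 283, 274 and 243 in AICAR arrays, 164, 227 and 164 in GW1516 arrays, 217, 247 and 261 in combination arrays, and 231, 276 and 195 in vehicle arrays. Each treated group overlapped with vehicle, while all 3 AICAR arrays lay above all 3 GW1516 arrays. AICAR against GW1516 gave 0.54 ± 0.16 for Ggps1 (SE, limma adjusted p = 0.375). Without GW1516 replicate 2 it was 0.70 (adjusted p = 0.276). None of the 3 other Ggps1 probe sets past the filter shared that direction, at -0.20, -0.04 and -0.03 for AICAR against GW1516. These 3 did not share one direction for GW1516 against vehicle, at -0.06, 0.05 and 0.41 beside -0.34 for the brightest, whose name ends in _s_at, a kind that can bind more than 1 transcript.

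Squalene formation and its closure to lanosterol gave 3 members and 0 called, with medians of 0.04 for AICAR, 0.30 for GW1516 and 0.77 for the combination. Fdft1, squalene synthase, had 1062, 1163 and 1135 in AICAR arrays, 1069, 1857 and 1150 in GW1516 arrays, 1298, 1078 and 1083 in combination arrays, and 1184, 1048 and 1049 in vehicle arrays. All groups overlapped, and 1 array, GW1516 replicate 2, stood far above the rest. The Fdft1 difference for GW1516 was 0.27 ± 0.16 (SE, adjusted p = 0.607) with that array and 0.02 without it.

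Lss, lanosterol synthase, had 101, 131 and 55.3 in AICAR arrays, 75.1, 84.8 and 77.2 in GW1516 arrays, 114, 100.1 and 116 in combination arrays, and 60.4, 88.6 and 49.5 in vehicle arrays. The combination arrays all lay above the vehicle arrays, and both single-drug groups overlapped with vehicle. The differences from vehicle were 0.49 ± 0.30 for AICAR, 0.30 ± 0.30 for GW1516 and 0.77 ± 0.30 for the combination (SE, limma adjusted p = 0.768, 0.785 and 0.368). With 1 array left out at a time, the Lss difference ran from 0.22 (without AICAR replicate 2) to 0.84 (without AICAR replicate 3) for AICAR and from 0.11 (without vehicle replicate 3) to 0.53 (without vehicle replicate 2) for GW1516. The Lss probe set, like those of Ggps1 and Mvd, has a name ending in _s_at. A dimmer Lss probe set had 46.3, 59.6 and 34.7 in AICAR arrays and 26.3, 37.2 and 42.1 in GW1516 arrays. It had 44.3, 51.7 and 49.0 in combination arrays and 19.3, 35.8 and 29.8 in vehicle arrays. Sqle, squalene epoxidase, whose reaction is a slow step of the pathway, had 24.5, 25.4 and 48.9 in AICAR arrays, 88.8, 48.8 and 27.0 in GW1516 arrays, 62.6, 59.8 and 57.6 in combination arrays, and 38.9, 31.4 and 34.3 in vehicle arrays. Again the 3 combination arrays lay above the vehicle arrays, by 0.79 ± 0.44 (SE, adjusted p = 0.543), with a 95% interval from 0.897-fold to 3.32-fold. Sqle was the dimmest member, near the filter at a signal of 28.2, and its GW1516 arrays spanned 27.0 to 88.8.

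Between lanosterol and cholesterol, 9 of 9 members were measured and 0 called. For AICAR 4 of the 9 lay above 0 with a median of -0.03. For GW1516 1 of 9 lay above 0 with a median of -0.155, and for the combination 1 of 9 with a median of -0.13, the 1 in both cases being Cyp51, the lanosterol demethylase, at 0.36 and 0.34. The GW1516 figures without replicate 2 were 2 of 9, Cyp51 and Msmo1, and -0.10. Tm7sf2, a sterol C14 reductase, had 187, 149 and 139 in AICAR arrays, 140.5, 71.8 and 118 in GW1516 arrays, 134, 134 and 217 in combination arrays, and 184, 170.2 and 143 in vehicle arrays. The GW1516 arrays all lay below the vehicle arrays, though the gap between the nearest arrays was small, and the other groups overlapped with vehicle. The Tm7sf2 difference for GW1516 was -0.64 ± 0.25 (SE, limma adjusted p = 0.482), and -0.355 without GW1516 replicate 2.

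Lbr, which carries the same reductase activity in the inner nuclear membrane, lay below vehicle at -0.09, -0.155 and -0.20 for AICAR, GW1516 and the combination. Ebp, the sterol isomerase, lay at -0.03, -0.29 and -0.18. Dhcr7, which reduces 7-dehydrocholesterol to cholesterol, lay at -0.25, -0.35 and -0.24, and Sc5d, the desaturase before it, at 0.04, -0.08 and -0.01. Of the 3 demethylation enzymes after Cyp51, Msmo1 lay at 0.08, -0.07 and -0.40, Nsdhl at 0.01, -0.26 and -0.13, and Hsd17b7 at -0.28, -0.10 and -0.01. None of these was called. The other Hsd17b7 probe sets did not share one direction for AICAR. Above vehicle ran 1 with 102, 116 and 85.0 against 106, 83.7 and 70.0, and 1 with 58.4, 48.9 and 55.9 against 36.2, 65.2 and 12.7. Below vehicle ran 1 with 131, 121 and 163 against 122, 153 and 169. Once GW1516 replicate 2 was left out, the GW1516 values were -0.13 for Ebp, -0.17 for Dhcr7, 0.17 for Msmo1 and -0.10 for Nsdhl.

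**Figure D2:**
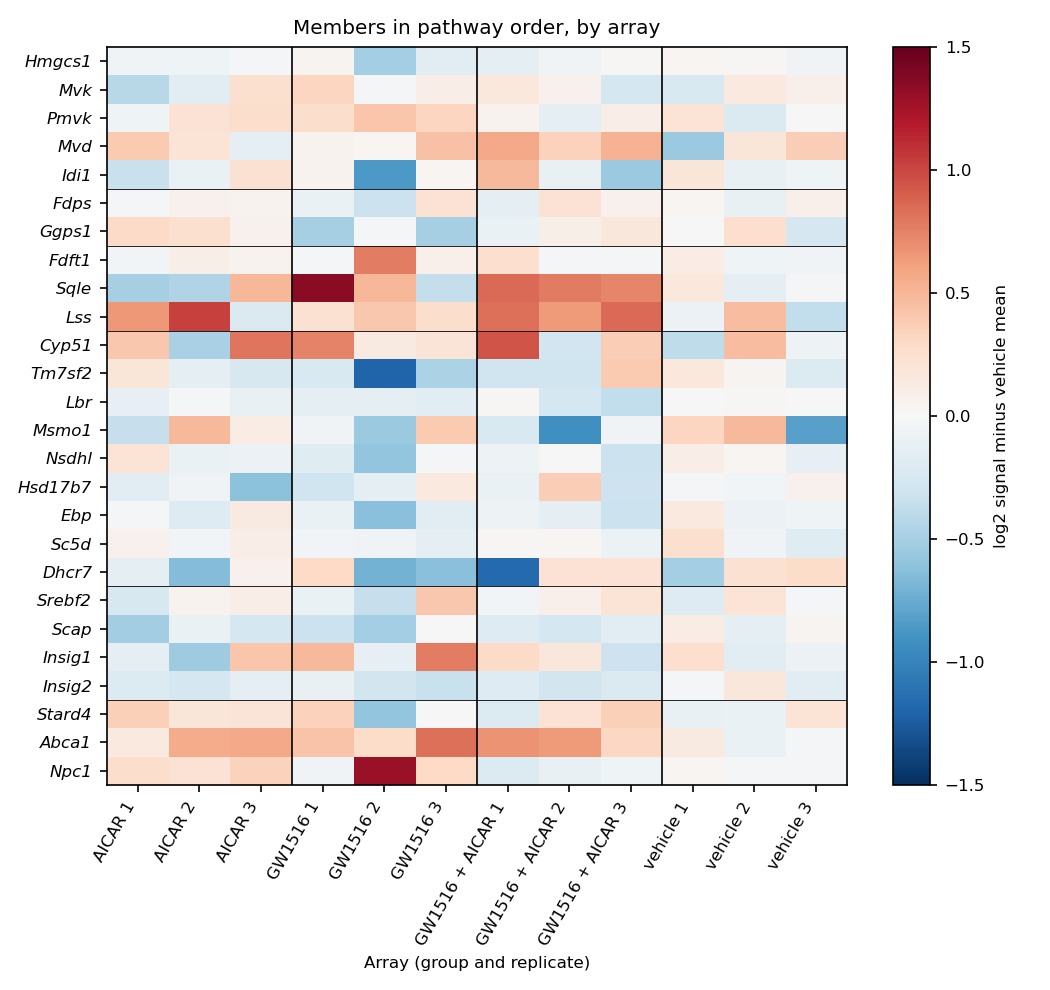
Log2 signal of each measured member on each of the 12 arrays minus its vehicle mean, with groups as blocks of 3 arrays and genes ordered by role. The rows of Abca1, Insig2 and Scap keep one sign over the treated arrays against the vehicle mean, a pattern not counted over all genes. The column of GW1516 replicate 2 holds the lowest values of 8 members.

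The genes that control SREBP2 gave 4 members and 0 called. Srebf2, which encodes SREBP2 itself, differed from vehicle by -0.03, -0.01 and 0.08 for AICAR, GW1516 and the combination, with 95% intervals from 0.744-fold to 1.29-fold, from 0.752-fold to 1.30-fold and from 0.802-fold to 1.39-fold. The Srebf2 value for GW1516 was 0.15 without replicate 2. A second, dimmer Srebf2 probe set did not share these values, at -0.33, -0.52 and -0.40 in the same order (limma adjusted p = 0.845, 0.601 and 0.644). Scap, the escort of SREBP2, lay at -0.30, -0.28 and -0.21, with -0.16 for GW1516 without replicate 2, and its combination arrays all lay below the vehicle arrays. Insig1, a sterol-regulated partner of SCAP and itself an SREBP target, lay at -0.08, 0.37 and 0.05. Without GW1516 replicate 2, the lowest of the 3 GW1516 arrays for this gene, the Insig1 difference for GW1516 was 0.62 (adjusted p = 0.700).

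Insig2, the second INSIG gene, was the brightest member. It had 1270.3, 1224 and 1332 in AICAR arrays, 1358, 1210 and 1166 in GW1516 arrays, 1282, 1210 and 1261 in combination arrays, and 1450, 1652 and 1316 in vehicle arrays. The combination arrays all lay below the vehicle arrays, and 1 AICAR and 1 GW1516 array lay above the lowest vehicle array. The means were 1275 ± 54.1 in AICAR arrays, 1245 ± 101 in GW1516 arrays, 1251 ± 36.8 in combination arrays and 1473 ± 169 in vehicle arrays (SD, n = 3 each). The differences from vehicle were -0.20, -0.24 and -0.23, each ± 0.093 (SE, limma adjusted p = 0.716, 0.478 and 0.384), with 95% intervals from 0.757-fold to 0.998-fold, from 0.738-fold to 0.973-fold and from 0.743-fold to 0.979-fold. Its 2 other probe sets also lay below vehicle in the 3 comparisons, at -0.25, -0.53 and -0.38 for one and -0.16, -0.07 and -0.09 for the other. All 3 differences lean on the same vehicle arrays, and without vehicle replicate 2, the highest, they were -0.12, -0.15 and -0.14.

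**Figure D3:**
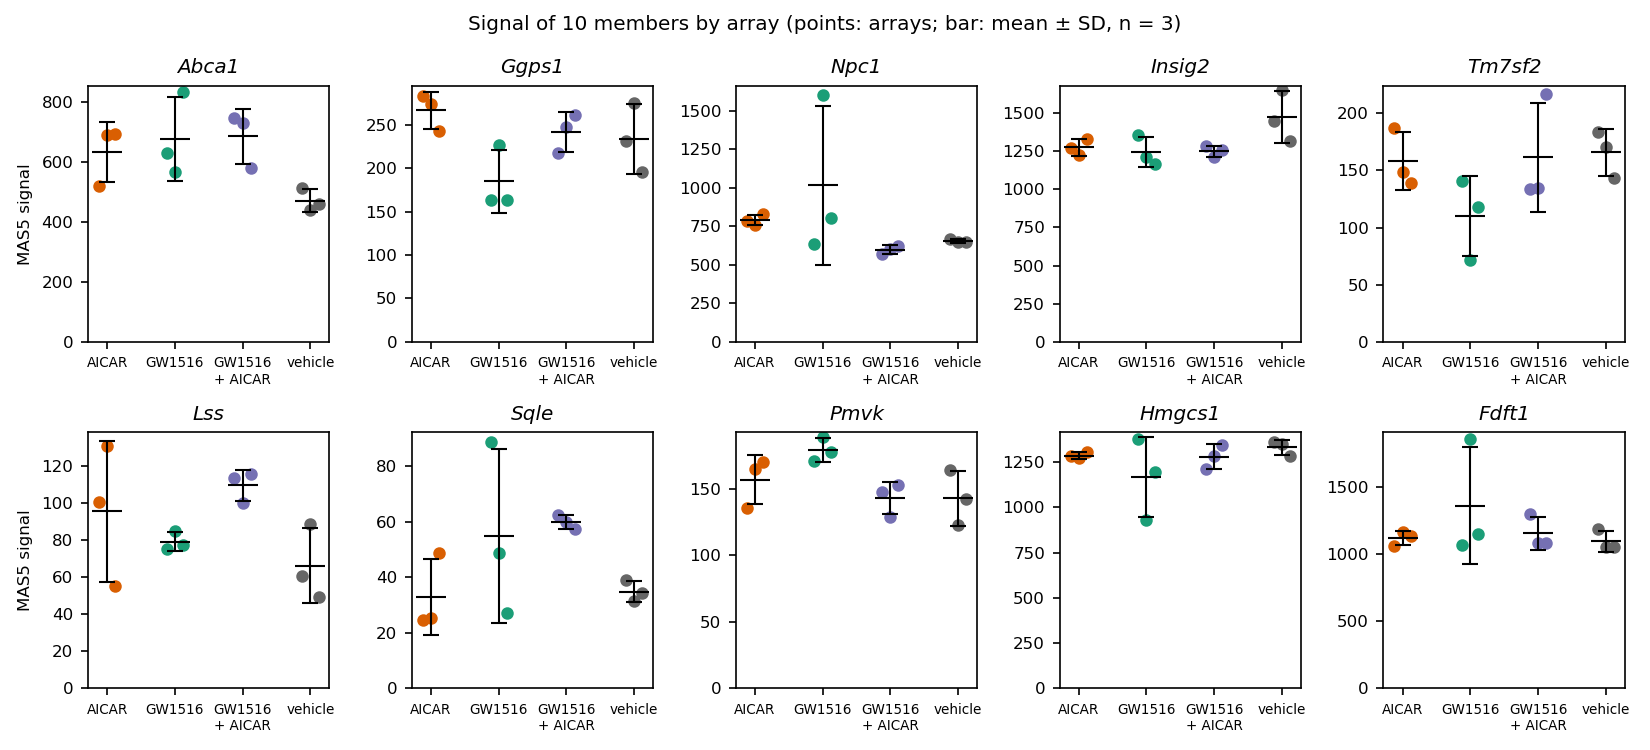
MAS5 signal on each array, on a linear axis from 0, for the 10 members described array by array, with AICAR, GW1516, combination and vehicle from left to right and bars giving the mean ± SD (n = 3). In the Abca1 panel all 9 treated arrays lie above all 3 vehicle arrays, a pattern not counted over all genes. In the Npc1 panel 1 GW1516 array lies near 1604.

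The remaining members move sterols or export them. Abca1, which loads cholesterol onto apolipoprotein A-I, ranked first of the 26 by the F test (limma adjusted p = 0.376). Its signals were 518, 690 and 694 in AICAR arrays, 629, 566 and 833 in GW1516 arrays, 747, 730 and 580 in combination arrays, and 513, 438 and 459 in vehicle arrays. All 9 treated arrays lay above all 3 vehicle arrays, with AICAR replicate 1 and vehicle replicate 1 almost level. The share of all genes with this pattern was not counted. The means were 634 ± 100 in AICAR arrays, 676 ± 139 in GW1516 arrays, 685 ± 91.9 in combination arrays and 470 ± 38.5 in vehicle arrays (SD, n = 3 each). The differences from vehicle were 0.42 ± 0.16 for AICAR, 0.51 ± 0.16 for GW1516 and 0.54 ± 0.16 for the combination (SE, limma adjusted p = 0.641, 0.374 and 0.210), or 1.34-fold, 1.42-fold and 1.45-fold. None passed the threshold, and the combination did not differ from either drug alone beyond its error. The 2 other Abca1 probe sets also lay above vehicle in each comparison, at 0.25, 0.31 and 0.40 for one and 0.36, 0.50 and 0.47 for the other.

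Npc1, which releases cholesterol from late endosomes and lysosomes, had 784, 758 and 828 in AICAR arrays, 632, 1604 and 806 in GW1516 arrays, 568, 604 and 623 in combination arrays, and 669, 646 and 644 in vehicle arrays. The AICAR arrays all lay above the vehicle arrays, the combination arrays all lay below every other group, and the GW1516 arrays overlapped with AICAR and with vehicle. The differences from vehicle were 0.27 ± 0.23, 0.52 ± 0.23 and -0.13 ± 0.23 for AICAR, GW1516 and the combination (SE, limma adjusted p = 0.840, 0.501 and 0.874). The interaction was -0.92 ± 0.325 (SE, adjusted p = 0.723). Without GW1516 replicate 2 the GW1516 difference was 0.13 and the interaction -0.53 (adjusted p = 0.703). Stard4, a soluble sterol carrier, lay at 0.245, -0.08 and 0.12, and at 0.17 for GW1516 without replicate 2.

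Counted by groups that did not overlap with vehicle, the members again lay near the background. For AICAR 2 members were higher on all 3 arrays, Abca1 and Npc1 (7.69%, beside 9.3% of all genes), and 2 lower, Lbr and Hsd17b7 (7.69%, beside 9.03%). The nearest Hsd17b7 arrays were almost level, at 149.99 for AICAR and 151.3 for vehicle, and not all its probe sets shared that direction. For GW1516 2 were higher, Abca1 and Pmvk (7.69%, beside 6.3%), and 3 lower, Tm7sf2, Lbr and Ebp (11.5%, beside 7.91%). For the combination 3 were higher, Abca1, Lss and Sqle (11.5%, beside 8.9%), and 3 lower, Scap, Insig2 and Npc1 (11.5%, beside 9.69%).

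What the arrays could resolve differed between members. The half-width of the 95% interval of a difference was 0.20 for Insig2 and 0.22 for Lbr. It was 0.82 for Msmo1, 0.84 for Dhcr7, 0.89 for Cyp51 and 0.94 for Sqle, members whose geometric mean signals were 83.7 or less. The median standard error over the members was 0.185, beside 0.188 over all genes. These intervals are not adjusted for the number of genes tested, so a half-width is not the smallest difference that could be called. Insig2 for GW1516 exceeded its half-width and was not called.

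**Figure D4:**
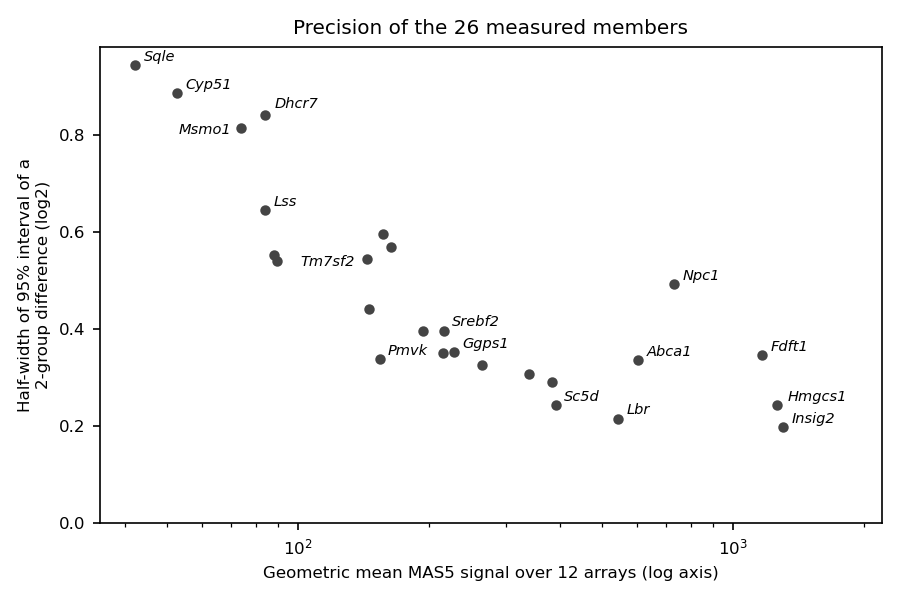
Half-width of the 95% interval of a difference between 2 groups, in log2 units, against the geometric mean MAS5 signal over 12 arrays, on a log axis, for the 26 measured members. The widest intervals belong to the dimmest members, Sqle at 0.94 and Cyp51 at 0.89, and the narrowest to Insig2 at 0.20, while Npc1 is wide for its signal.

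Other genes of sterol handling gave the same count. Of 25 listed, 17 were measured and 0 were called against vehicle. For AICAR 9 of 17 lay above 0 with a median of 0.00, for GW1516 9 with a median of 0.03, and for the combination 12 with a median of 0.08. Abcg1, which exports cholesterol to lipoprotein particles, had the smallest p of the list for GW1516 and for the combination. Its signals were 58.0, 93.0 and 75.1 in AICAR arrays, 118, 76.9 and 88.6 in GW1516 arrays, 98.6, 147 and 150.1 in combination arrays, and 75.8, 54.7 and 38.4 in vehicle arrays. The GW1516 and the combination arrays all lay above the vehicle arrays, by narrow margins for GW1516. The Abcg1 differences were 0.45 ± 0.295 for AICAR, 0.78 ± 0.295 for GW1516 and 1.26 ± 0.295 for the combination (SE, limma adjusted p = 0.788, 0.466 and 0.118), the last a 2.39-fold difference that missed the threshold. Mylip, whose protein marks lipoprotein receptors for degradation, had the smallest p for AICAR, at -0.28 (adjusted p = 0.652).

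Further lists give the setting of these values. The PPARδ target list held 6 measured genes, Pdk4, Angptl4, Ucp3, Plin2, Slc25a20 and Acadl. Those called for GW1516 were Ucp3 by 1.35 and Acadl by 0.92 (limma adjusted p = 0.00583 and 0.00583). Those called for the combination were Ucp3 by 1.46, Acadl by 0.99, Pdk4 by 1.32 and Slc25a20 by 0.76 (limma adjusted p = 0.000996, 0.00127, 0.0466 and 0.0116). The 9 genes of fatty acid synthesis, which SREBP1 drives, all lay above 0 in the 3 comparisons with medians of 0.64, 0.27 and 0.75 for AICAR, GW1516 and the combination, and 0 were called. Thrsp, a lipogenic regulator, stood at 0.86 for AICAR (adjusted p = 0.709) and Me1, malic enzyme, at 0.30 for the combination (adjusted p = 0.191).

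The medians of the lipogenic genes and fat cell markers varied between arrays of a group far more than the members' median did. Single members could vary more than their median, as Npc1 did, from -0.05 to 1.30 over the GW1516 arrays. Against the vehicle mean, the lipogenic median stood at -0.02, 0.57 and 1.47 in AICAR arrays, 0.60, -0.43 and 0.87 in GW1516 arrays, 1.30, 0.73 and 0.17 in combination arrays, and 0.31, -0.13 and -0.17 in vehicle arrays. The adipocyte median, over 8 of 10 markers measured with none at 0, was -0.10, 0.92 and 1.66 in AICAR arrays, 0.60, 0.18 and 1.22 in GW1516 arrays, 1.39, 0.55 and -0.08 in combination arrays, and 0.53, -0.48 and -0.15 in vehicle arrays. The 3 highest arrays were the same in both lists, AICAR replicate 3, combination replicate 1 and GW1516 replicate 3. The summed adipocyte signal was 7080 to 20558 in AICAR arrays, 7346 to 14712 in GW1516 arrays, 6971 to 16245 in combination arrays and 5461 to 11755 in vehicle arrays. The part of fat cells in the members' values was not tested. AICAR replicate 3 was the highest of the 12 arrays both for the adipocyte list, at 1.66, and for the members, at 0.08. The next highest adipocyte arrays are given beside the members' medians, and no relation between the 2 was tested. Combination replicate 1 had 1.39 and members at -0.06, GW1516 replicate 3 had 1.22 and 0.05, and AICAR replicate 2 had 0.92 and -0.05.

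Markers of nerve, endothelium and blood were followed as well, with 0 called. Schwann cell and nerve markers, 4 of 6 measured and none at 0, had medians of 0.32 for AICAR, 0.14 for GW1516 and 0.525 for the combination, where 4 of 4 lay above 0. Their summed signal was 1164 to 1381 in combination arrays, against 804 to 1138 in vehicle arrays. Their per-array medians overlapped, at 0.55, 0.49 and 0.255 in combination arrays and -0.10, 0.42 and -0.18 in vehicle arrays. Endothelial markers, 5 of 5 measured, had medians of -0.14, -0.135 and -0.19. Alas2, the 1 blood marker measured, stood at 1.10, 0.51 and 1.49. Its vehicle signals were 104, 11.4 and 61.8, and the treated arrays ran from 50.8 to 126. These differences lean on vehicle replicate 2, which lay below the filter signal of 28.2. The part of these cells in the members' values was not tested.

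**Figure D5:**
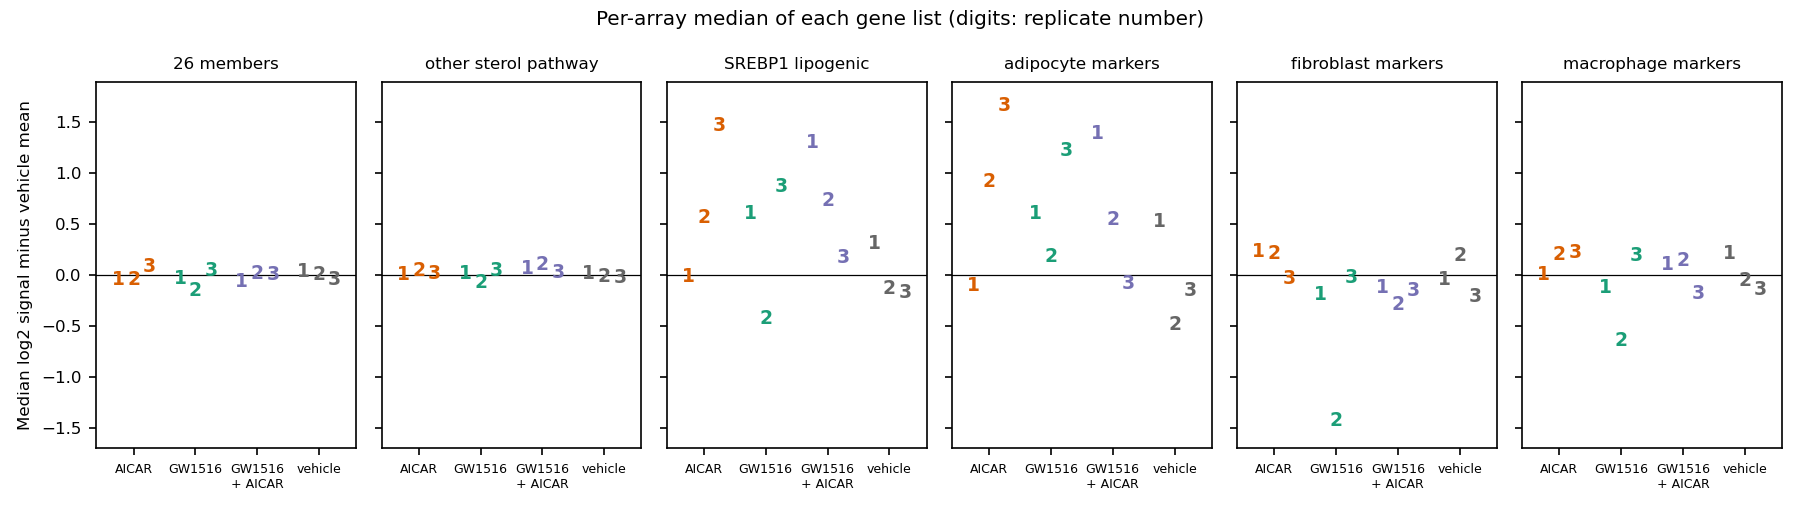
Median log2 signal minus the vehicle mean on each array for the 26 cholesterol members, the 17 other sterol pathway genes, the 9 lipogenic genes and the adipocyte, fibroblast and macrophage markers, with digits giving the replicate. The members' median stays between -0.15 and 0.08 over the 12 arrays, while the lipogenic and adipocyte medians reach 1.47 and 1.66 on AICAR replicate 3 and the fibroblast median -1.43 on GW1516 replicate 2.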

How the data were processed

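The deposited values are array intensities on a linear scale, made with MAS5 per the submitters' processing notes, and every array had a trimmed mean of 200. The MAS5 version is not given in the sources used here. Of 45101 probe sets 64 controls were left out, and 34945 of the others carried 1 gene symbol in an array annotation of 2016. Signals under 1 were set to 1 and log2 was taken. The dimmest 40% of probe sets (mean signal under 28.2) were left out, and the brightest probe set stood for its gene.

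The model (limma 3.58.1, R 4.3.3) held 4 group means over 12 arrays and a variance trend on signal, with 8 residual and 5.91 prior degrees of freedom, and two-sided tests. Precision is limited by 3 arrays a group. The members and lists were chosen with earlier results of these data known. Array values are given for the 8 members with the smallest F test p and the 4 brightest, 10 genes in all, and other lists by counts, naming genes called or of smallest p. The code was tested on simulated data. Alternatives changed the normalization, floor, filter, probe sets, variance model and arrays used. Promoters are from RefSeq (GRCm38.p6). Figures used matplotlib 3.10.9 (Python 3.11.15).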

Additional observations from a re-analysis of the deposited data

Results flagged for a closer look

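Npc1 is given again because the AICAR effect ran one way without GW1516 and the other way with it. All measured members were searched for such a pattern with either drug, and the share of all genes that show it was not counted. All 3 AICAR arrays (784, 758 and 828) lay above the vehicle arrays (669, 646 and 644), and all 3 combination arrays (568, 604 and 623) lay below the GW1516 arrays (632, 1604 and 806). The difference between the 2 effects, the interaction, was -0.92 on the log2 scale (limma adjusted p = 0.723), and -0.53 without GW1516 replicate 2, the array at 1604 (adjusted p = 0.703). It did not pass the threshold either way, and Npc1 has 1 probe set past the filter, so no second probe set could be compared.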

How the results depend on the processing

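No member was called in any of 226 recounts over the 10 tests and the alternatives. The 40 differences of the 10 members given array by array kept their sign, uncalled, in 920 of 950 recalculations and changed sign in 30, with 0 called. Many of these settings could not change a sign, since they keep the same group means. They were no trend, robust variances, the filters, the replicate block, the compared groups alone and omission of an array outside the comparison. The 920 therefore does not measure how firm the signs were. The signs that changed belonged to 11 differences, given with their values here, and the cause was not tested.

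Median centring of each array moved the median of all genes by over 0.1 for AICAR against vehicle (-0.108, beside 0.009), AICAR against GW1516 (-0.121, beside 0.032), the combination against GW1516 (-0.102, beside 0.013) and the average AICAR effect (-0.106, beside 0.01). The members' medians moved with it, to -0.128 for AICAR against vehicle, -0.092 for the combination against vehicle, -0.026 for the combination against GW1516, -0.101 for AICAR against GW1516 and -0.069 for the average AICAR effect. It turned Fdft1 to -0.082 for AICAR and -0.005 for the combination, and Ggps1 to -0.023 and Pmvk to -0.07 for the combination. With all probe sets of a gene averaged, Fdft1 was -0.024 for AICAR and -0.072 for the combination, and Ggps1 0.015 for GW1516, -0.019 for the combination and -0.034 for the combination against GW1516. Other Ggps1 probe sets gave -0.256 for AICAR, 0.046 and 0.414 for GW1516, -0.311 for the combination and -0.201, -0.036 and -0.03 for AICAR against GW1516, and the other Fdft1 probe set -0.084 for AICAR and -0.217 for the combination. With array weights the members' median was 0.046 for GW1516 against vehicle, 0.011 for the combination against GW1516 and 0.015 for the interaction.

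With each array left out in turn, the members' median ran from -0.169 to 0.047 for GW1516 against vehicle (highest without GW1516 replicate 2), from -0.043 to 0.179 for the combination against GW1516, from -0.05 to 0.098 for AICAR against GW1516, from -0.002 to 0.12 for the interaction and from -0.079 to 0.037 for the average GW1516 effect. Against vehicle, Tm7sf2 ran from -0.197 to 0.016 and Sqle from -0.476 to 0.021 for AICAR, and for the combination Ggps1 ran from -0.068 to 0.181, Tm7sf2 from -0.298 to 0.048, Pmvk from -0.097 to 0.113 and Fdft1 from -0.015 to 0.132.

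The background counts of all genes called moved more. AICAR against vehicle gave 1, but 4 with quantile normalization, a pseudocount of 32, a filter of 60% or robust variances, 0 without the trend, 15 with array weights and 28 from the compared groups alone. GW1516 against vehicle gave 12, but 7 with probe sets averaged, 0 without the trend and 2 from the compared groups alone. The combination against vehicle gave 33, but 18 without the filter, 2 without the trend and 92 with array weights. The combination against AICAR gave 4, but 2 with quantile normalization, median centring, no filter or probe sets averaged. The combination against GW1516 gave 0, but 1 without the trend. AICAR against GW1516 gave 0, but 20 with median centring and 2 with array weights. The average AICAR effect gave 4, but 120 with median centring, 18 with a pseudocount of 32, 15 without the filter or with one of 60%, 7 with probe sets averaged, 0 without the trend and 29 with array weights. The average GW1516 effect gave 19, but 7 without the trend, and the F test 14, but 25 with median centring, 0 without the trend and 45 with array weights. Over the omissions of 1 array the counts ran from 0 to 8, 0 to 41 and 10 to 95 for AICAR, GW1516 and the combination against vehicle, 1 to 10 and 0 to 10 for the combination against AICAR and GW1516, 0 to 2 for AICAR against GW1516, 3 to 18 and 14 to 36 for the average AICAR and GW1516 effects, and 7 to 38 for the F test.

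Arrays with the same replicate number did not deviate together: over 18 such pairs the correlation ran from -0.108 to 0.0694, and 2 of 12 arrays were closest to one of their own number. With the replicate number as a block, 4 genes were called for AICAR against vehicle, 16 for the combination against vehicle and 1 for the combination against AICAR, and 0 members in any test.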
